A study of Mus musculus with 8 samples.

Results

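Accessible chromatin around 10 genes of cyclic nucleotide signalling was examined in mouse granulosa cells, which line the ovarian follicle and nurse its oocyte. The genes were Pde4d, Pde4b, Pde10a, Pde8a, Prkar2b, Prkaca, Prkg2, Adcyap1, Adcy3 and Rgs2, named for their place in the pathway and chosen with earlier results of these data known. Peaks that overlapped a gene body or 50 kb on either side were taken from 8 peak lists made by ATAC-seq, in which the transposase Tn5 cuts and tags open DNA. Peaks that overlapped between libraries, by at least 1 bp, were joined into one region. Coordinates are in build mm10. The 10 windows held 224 regions of 98245 in all.

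The gonadotropin surge acts on granulosa cells through a receptor that couples to the stimulatory G protein and so to adenylyl cyclase, which makes cAMP from ATP. cAMP releases the catalytic subunits of protein kinase A (PKA) from their regulatory subunits, and phosphodiesterases end the signal by hydrolysing cAMP or cGMP. PKA phosphorylates CREB-type factors that bind the cAMP response element (CRE), and cGMP, which passes from granulosa cells to the oocyte, is known for its part in meiotic arrest.

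All mice were 21 days old and received 5 IU of eCG, also called PMSG, which drives follicle growth. After 46 h they were killed, or given 5 IU of hCG, which stands in for the luteinising hormone (LH) surge, and killed 6 h later. The LH experiment, in wild-type F1 mice of CBA x C57BL/6, gave 2 libraries each with the title hCG or PMSG. The PR experiment, in strain C.129S7(B6)-Pgrtm1Bwo/OmcJ, gave 2 libraries from wild-type mice (WT) and 2 from knockouts (KO) of Pgr, the progesterone receptor gene, which the design text and a 6 h tag place after hCG and a pre-ovulatory source name does not. Each library pooled cells of 2 to 3 mice. In the LH experiment the time tags (0 h for hCG and 6 h for PMSG) go against the titles, and the titles, which the source names match, were followed. In pooled cells, a site open in more cells and a site more open in each cell cannot be told apart. The LH and PR experiments also differ in strain, so treatment and strain cannot be told apart where their libraries are compared.

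The lists held between 55654 intervals (KO replicate 2) and 84313 (WT replicate 2), and the read depth behind them is unknown. At the start of Pgr each WT, hCG and PMSG library held 1 interval, while both KO libraries held 2 with a gap of 272 and 394 bp. Granulosa cell markers had a peak over a listed start or gene end in all 8 libraries for 4 of 7 genes (Fshr, Cyp19a1, Foxl2 and Amh), and Inha, Nr5a2 and Hsd17b1 had none in any. The same held for 1 of 5 theca and stroma markers (Acta2), 2 of 4 endothelial markers (Cdh5 and Kdr), 0 of 4 immune markers and 1 of 4 oocyte markers (Gdf9). The immune gene Cd68 and the theca gene Cyp17a1 had such a peak in 2 libraries each. The other immune genes (Ptprc, Adgre1 and Cd3e), theca and stroma genes (Insl3, Col1a1 and Pdgfra), endothelial genes (Pecam1 and Tie1) and oocyte genes (Zp3, Bmp15 and Oosp1) had one in 0 libraries. Amh, Hsd17b1, Cyp17a1, Col1a1, Pecam1, Cdh5, Adgre1 and Gdf9 had no listed start. For them a peak at either gene end was counted, which need not be the start.

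RefSeq windows of assembly GRCm38.p6 list starts for 9 of the 10 genes, Prkg2 having none listed, and 4 are shown as examples of a CRE end at an open start (Rgs2, Prkaca and Pde8a) and at a start without a peak (Adcyap1). Each is the 250 bases before a listed start, 5′ to 3′ on the gene's strand, with every TGACG (or its reverse complement CGTCA) in capitals.
Rgs2, chr1:144004150-144004399, minus strand: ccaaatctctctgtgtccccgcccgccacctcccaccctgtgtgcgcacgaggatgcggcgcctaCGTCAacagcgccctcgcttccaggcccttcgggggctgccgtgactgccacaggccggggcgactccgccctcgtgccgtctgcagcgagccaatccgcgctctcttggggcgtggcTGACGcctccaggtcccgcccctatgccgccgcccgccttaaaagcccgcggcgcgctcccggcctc
Prkaca, chr8:83972728-83972977, plus strand: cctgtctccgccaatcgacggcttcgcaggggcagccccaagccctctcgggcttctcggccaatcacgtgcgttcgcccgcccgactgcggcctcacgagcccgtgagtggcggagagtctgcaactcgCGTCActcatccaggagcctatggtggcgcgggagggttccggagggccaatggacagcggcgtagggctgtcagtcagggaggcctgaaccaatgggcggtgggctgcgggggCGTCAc
Pde8a, chr7:81213015-81213264, plus strand: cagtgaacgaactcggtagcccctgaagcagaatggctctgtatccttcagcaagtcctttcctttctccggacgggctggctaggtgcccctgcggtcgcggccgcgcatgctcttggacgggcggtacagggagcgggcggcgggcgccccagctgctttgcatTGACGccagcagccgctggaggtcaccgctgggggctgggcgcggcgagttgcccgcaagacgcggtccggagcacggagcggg
Adcyap1, chr17:93198767-93199016, plus strand: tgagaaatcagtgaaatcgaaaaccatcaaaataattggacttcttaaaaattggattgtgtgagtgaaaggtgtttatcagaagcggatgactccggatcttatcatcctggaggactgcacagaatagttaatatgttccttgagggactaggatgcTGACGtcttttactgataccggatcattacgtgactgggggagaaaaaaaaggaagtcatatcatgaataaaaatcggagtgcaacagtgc
The full CRE, TGACGTCA, was in 0 of the 17 member windows of 300 bases and in 1.80% of 32619 windows. The 5-base end TGACG, searched on both strands, was in 6 of the 17 windows, belonging to Adcyap1, Pde4b, Pde8a, Prkaca and Rgs2, and in 20.9% of all windows. The 2 Adcyap1 windows overlap and share 1 site. In Rgs2 it lay 185 and 67 bases before the start, and in Prkaca 120 and 6 bases before. The NR5A motif AAGGTCA was in 0 member windows (4.71% of all), and the progesterone receptor motif AGAACA in 2, both of Pde4b (19% of all). The RUNX motif TGTGGT was in 4 member windows, of Adcy3, Pde10a and Pde4b (16.6% of all). TGANTCA (AP-1) occurred in 1, of Adcy3 (7.85%), and GATAA (GATA) in 2, of Adcyap1 and Pde4d (25.4%). TGACG is contained in TGACGTCA, and no other motif contains another. A match describes the letters only.

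At 8 of the 10 genes, at least 1 listed start lay in a peak of all 8 libraries. For Prkg2 this refers to the higher-coordinate end of the gene. The list of starts need not be complete for genes with several promoters, so an absent peak concerns the listed start alone. Without such a start were Pde4d, whose 1 listed start had no peak in any library although 12 regions of its window were held by all 8, and Adcyap1, whose 2 listed starts had none. At several genes with more than 1 listed start, only some lay in a peak. Pde4b had 4, of which those at 102570060 and 102589843 on chromosome 4 lay in a peak of every library and those at 102421555 and 102587558 in none. The Pde4b start at 102421555 and the Adcyap1 start shown above both hold TGACG without a peak. Prkaca, Pde10a and Adcy3 each had 1 open start and 1 without any peak. The second listed start of Prkar2b (chr12, 32060589) lay near the edge of the peak over its first start. That peak reached it in hCG replicate 2 and both WT libraries and in no PMSG or KO library. Past the first start the peak ended at 685 and 690 bp in hCG and at 675 and 673 bp in KO. In WT it ended at 742 and 791 bp and in PMSG at 447 and 469 bp. The peaks of hCG replicate 1 and KO thus ended just short of the second start. Pde8a had the widest start interval (chr7:81211806-81214358), from 1859 bp in PMSG replicate 1 to 2538 bp in WT replicate 1. For other pathway genes, a peak at either gene end was counted where no start was listed. All 8 libraries had such a peak at 11 of 14 other phosphodiesterases, 4 of 9 adenylyl cyclases and 7 of 7 PKA subunits and inhibitors. The count was 10 of 11 for A-kinase anchoring proteins and 8 of 8 for the guanylyl cyclase and natriuretic peptide list. It was 8 of 9 each for EPAC and CREB factors and for G proteins and PACAP receptors, and 4 of 8 for other RGS genes.

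**Figure D1:**
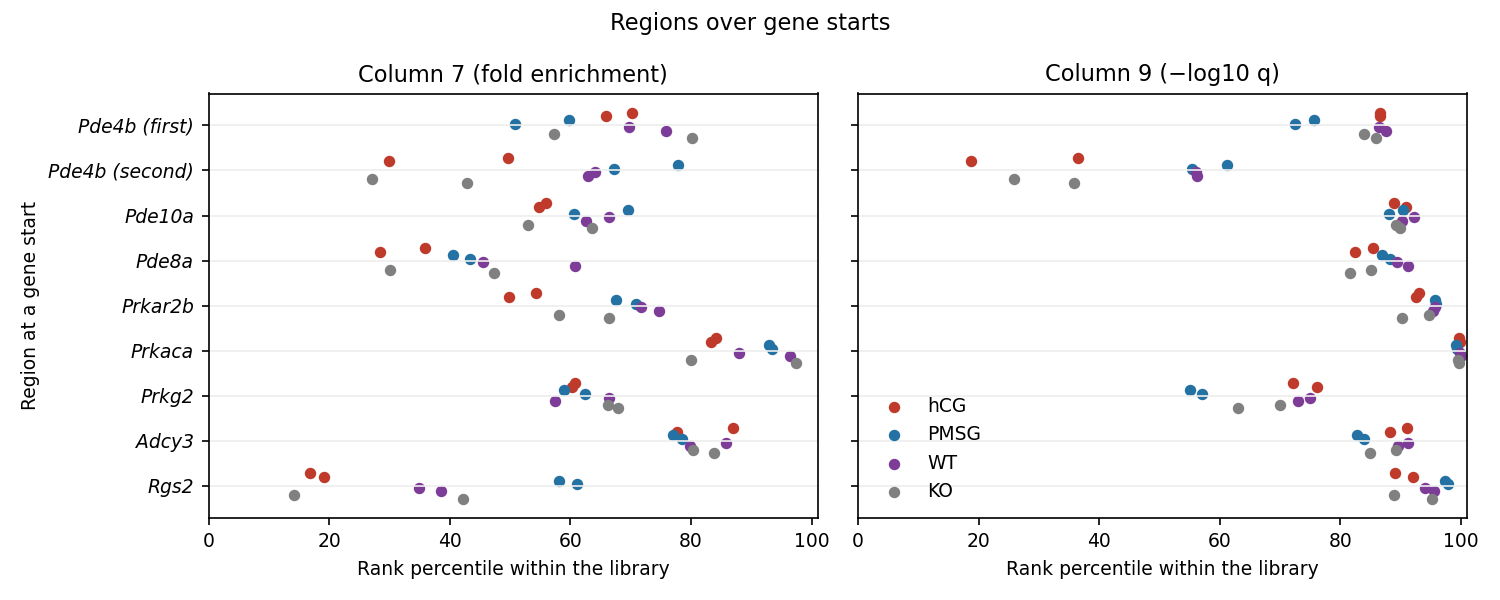
Rank percentile within each library of the regions over gene starts, by the authors' fold enrichment (left) and by −log10 q (right), with 1 point per library coloured by group and 100 the highest rank. The region of Rgs2 is low by fold in hCG libraries and above 88 by −log10 q in every library, and that of Prkaca is above 99 by −log10 q in all 8.

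Values of the authors' peak caller describe how strong a peak was within its own list. The fold enrichment sets a summit against the background the caller estimated, and −log10 q grows with the number of reads as well. The median fold of a list was 9.21 and 9.48 in PMSG, 8.23 and 8.72 in hCG, 7.66 and 7.85 in WT and 8.42 and 7.71 in KO. Folds are therefore given as values, and an order of groups stated for a region also held for its rank percentile by fold within the lists. Prkaca, the catalytic subunit alpha of PKA, had the start of highest rank among the members by −log10 q in all 8 libraries. By fold, Adcy3 was higher in hCG replicate 1 and KO replicate 1. The Prkaca fold was 12.9 and 13.0 in hCG, 17.2 and 17.8 in PMSG, 14.2 and 18.6 in WT and 12.2 and 16.9 in KO. By −log10 q Prkaca ranked between percentile 99.1 (PMSG replicate 1) and 99.95 (WT replicate 2). The start of Adcy3, an adenylyl cyclase of the membrane, had folds between 12.2 (hCG replicate 2) and 14.0 (PMSG replicate 2). Its rank percentile by fold overlapped between hCG and PMSG and between WT, at 85.8 and 79.8, and KO, at 80.4 and 83.8. The Pde8a start had a fold of 6.83 and 6.55 in hCG, 8.15 and 8.74 in PMSG, 7.19 and 9.42 in WT and 6.42 and 7.42 in KO. These values show PMSG above hCG. At the open start of Pde10a (chr17:8800561-8802399) it was 8.91 and 9.24 in hCG and 12.0 and 10.9 in PMSG, with the PR libraries from 8.73 to 9.90. At the start of Prkar2b, the RII beta regulatory subunit of PKA, the fold was 8.73 and 8.68 in hCG, 11.7 and 12.6 in PMSG, 10.8 and 12.0 in WT and 9.31 and 9.72 in KO.

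Among the open starts, that of Rgs2 had the largest gap in rank percentile by fold between PMSG and hCG. RGS2 speeds up GTP hydrolysis by G alpha proteins and so shortens receptor signalling. The region over its start (chr1:144003684-144004985) had a fold of 5.07 and 5.64 in the hCG libraries against 10.3 and 10.99 in the PMSG libraries. WT libraries had 6.17 and 6.55, and KO libraries 4.88 and 6.95. Both PMSG values thus lay above all 6 others, and the WT and KO values overlapped. The rank percentile was 58.2 and 61.1 in PMSG and at most 42.2 (KO replicate 2) elsewhere. With 55654 intervals taken from every list, its rank percentile by fold was 1.95 and 9.43 in hCG and 56.4 and 59.0 in PMSG. By −log10 q the same region ranked at 89.0 and 92.0 in hCG and 97.4 and 97.8 in PMSG. These percentiles lie near the top of the scale. The −log10 q itself was 289 and 308 in hCG and 594 and 636 in PMSG. The covered length was 745 and 1117 bp in hCG and 720 and 775 bp in PMSG, which overlap.

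A broad region at the other end of Rgs2 was called in hCG and not in PMSG libraries. It spans chr1:143998903-144000692 and was held by both hCG libraries, both WT and both KO libraries, and by neither PMSG library. Its covered length was 1662 and 1193 bp in hCG, 1270 and 1672 bp in WT and 1147 and 1504 bp in KO. The fold was low, from 3.11 (KO replicate 1) to 4.68 (WT replicate 2), while −log10 q ranked between percentile 61.2 and 85.7. Because of the low fold it was not called hCG-only when 55654 intervals were taken from each list by fold. A further region, 15.2 kb past the start (chr1:143988743-143989256), was held by every library with a fold of 6.31 and 5.40 in hCG, 12.3 and 13.3 in PMSG, 10.4 and 8.57 in WT and 6.03 and 7.39 in KO.

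**Figure D2:**
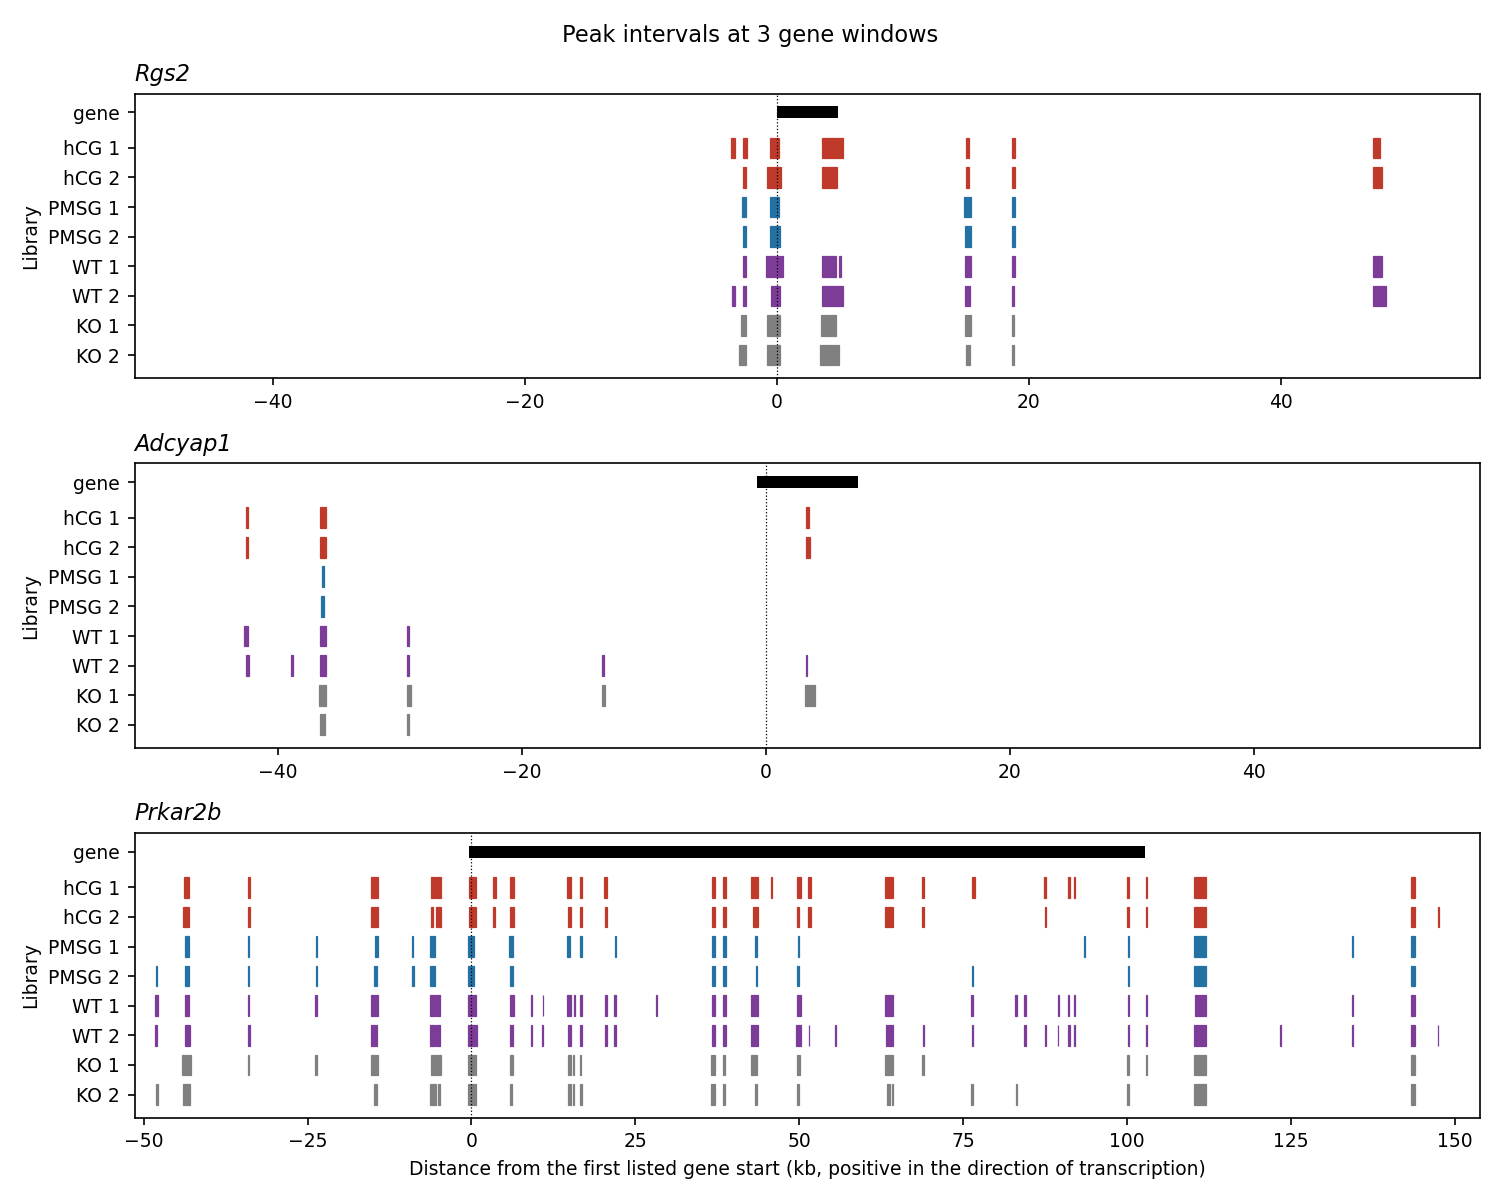
Peak intervals of each library at Rgs2, Adcyap1 and Prkar2b, drawn to scale as distance in kb from the first listed start, with the gene as a black bar and 1 row per library coloured by group. At Rgs2 the interval 47.9 kb past the start is present in hCG and WT and absent from PMSG and KO rows, as is the interval 42.6 kb before the start of Adcyap1.

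The LH comparison asks how accessibility differs after the ovulatory stimulus. A region was called hCG-only if both hCG libraries and neither PMSG library held it, and PMSG-only in the reverse case. Of the 177 member regions held by any LH library, 43 were hCG-only and 10 were PMSG-only. That is 24.3% hCG-only, where 17.6% of all such regions were, and 5.65% PMSG-only, where 10.3% of all were. Every gene had more hCG-only than PMSG-only regions. Pde4d had 8 and 1, Prkar2b 7 and 2, Pde4b 6 and 2, Pde10a 6 and 2, Pde8a 4 and 2 and Prkg2 4 and 0. Adcy3 had 3 and 1, Adcyap1 2 and 0, Rgs2 2 and 0 and Prkaca 1 and 0.

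The difference was also present with lists of equal length. With 55654 intervals per list, 38 regions were hCG-only and 11 PMSG-only among 152, or 25.0% and 7.24%, against 15.3% and 13.4% over all regions. Of the 43 hCG-only regions, 37 were called again. Prkaca was the only gene that changed sides, with 0 and 1. Among the 20000 strongest intervals of each list the balance turned, with 12 hCG-only and 15 PMSG-only regions (19% and 23.8%, against 17.1% and 16.0% over all regions). In that setting 3 genes had more hCG-only and 4 more PMSG-only regions. The PMSG-only count was 16 without PMSG replicate 1 (9.52%) and 19 without PMSG replicate 2 (11.1%), where 13.8% of all regions were PMSG-only in each case. Prkaca had equal numbers without hCG replicate 2, and so had Adcy3 without PMSG replicate 2.

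**Figure D3:**
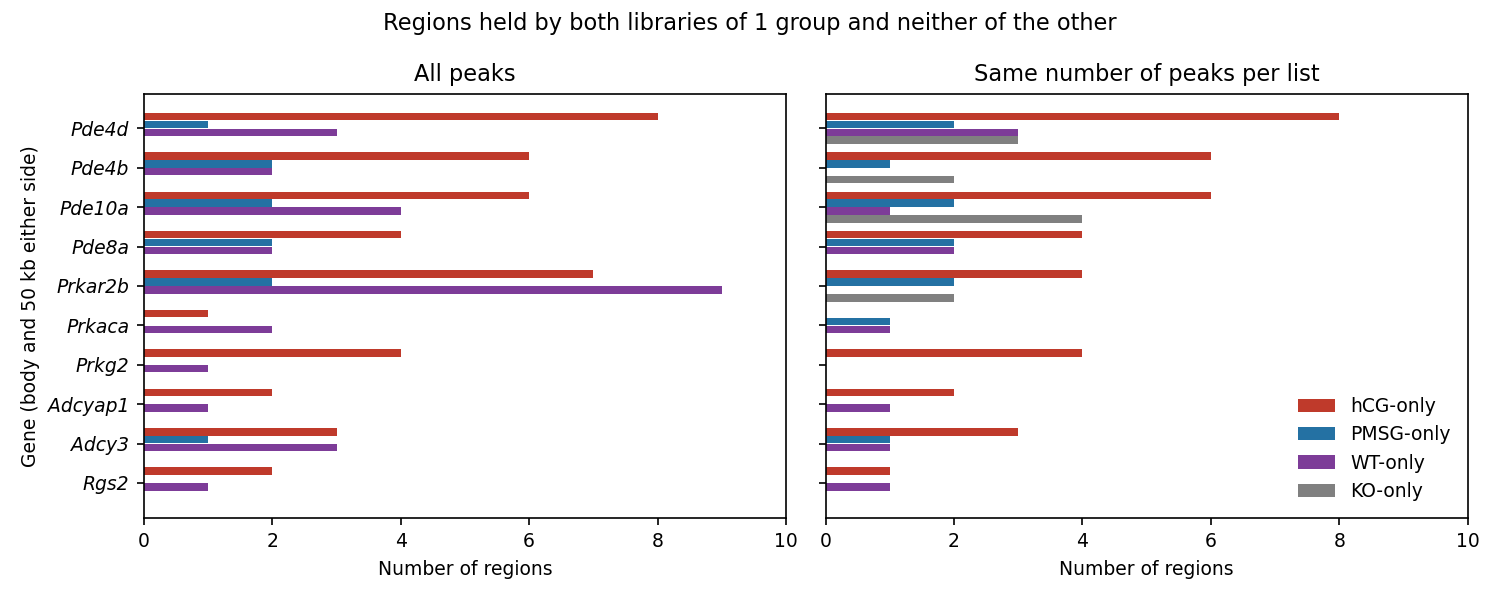
Number of regions per gene window held by both libraries of 1 group and by neither of the compared group, with all peaks (left) and with 55654 intervals per list (right). The red hCG-only bars are longer than the blue PMSG-only bars at every gene on the left and at all but Prkaca on the right, while the purple WT-only bars shrink from 28 regions to 10.

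Counted per library, the hCG lists held 144 and 132 of the 224 regions and the PMSG lists 104 and 97. In hCG that is 64.3% and 58.9%, where 65.6% and 62.6% of all regions were held. In PMSG it is 46.4% and 43.3%, where 57.3% and 58.0% of all were. With 55654 intervals per list the counts became 122 and 115 in hCG against 94 and 88 in PMSG, of 184 regions. The means were 118.5 ± 4.95 and 91 ± 4.24 (SD, n = 2 each), with p = 0.33 by a two-sided exact permutation test, which cannot go lower with 2 libraries against 2. In percent with equal lists, the PMSG lists held 51.1% and 47.8% of the member regions and 64.7% of all regions. The hCG lists held 66.3% and 62.5% of the member regions and 65.6% of all regions. WT lists held 65.8% and 66.3% of member regions and KO lists 71.2% and 69.0%, where 65.6% and 65.7% (WT) and 65.7% and 64.7% (KO) of all regions were held. The PMSG libraries were thus the lowest of the 8. Replicates were pools of mice.

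**Figure D4:**
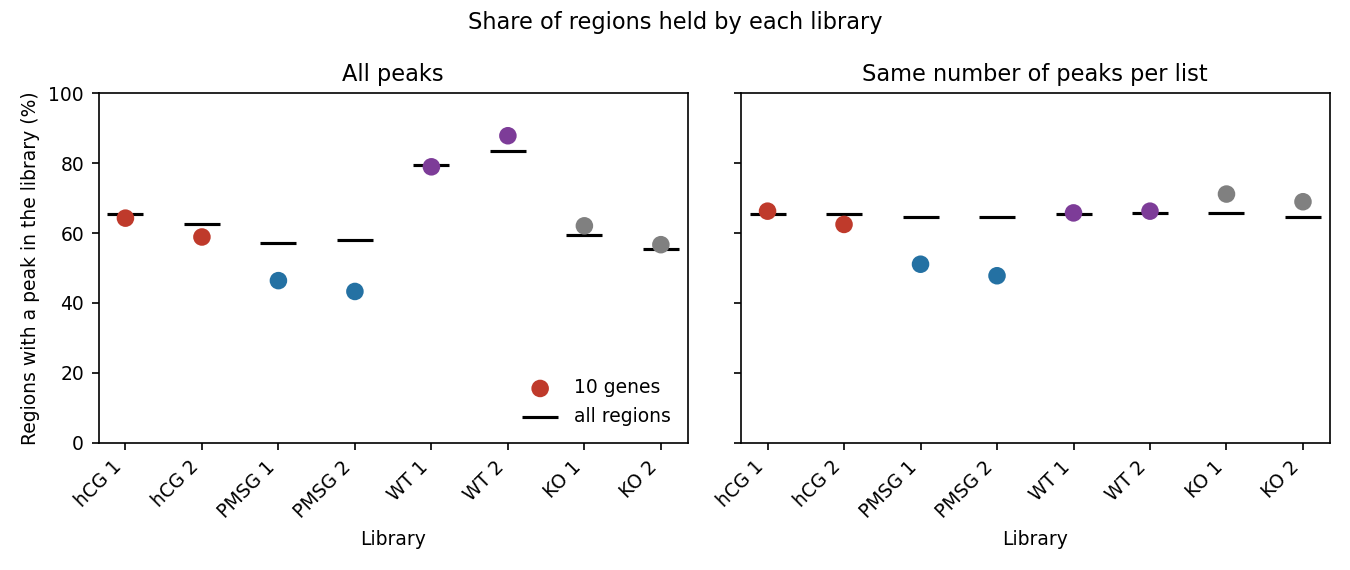
Percent of regions with a peak in each library for the 10 gene windows (coloured dots) and for all regions (black bars), with all peaks (left) and with 55654 intervals per list (right). In the right panel the 2 PMSG dots, at 51.1% and 47.8%, lie below their bars at 64.7%, and the other 6 dots lie between 62.5% and 71.2%.

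The 4 hCG-only regions of highest mean rank, taking the best of each gene, were those of the 4 phosphodiesterases. Pde4d, a cAMP-specific phosphodiesterase, spans 1302 kb, and 42 of its 44 regions lay inside the gene. The best hCG-only region (chr13:109659028-109659451) lay 1005 kb past the listed start, with a fold of 13.7 and 16.8 in hCG, 12.5 and 16.3 in WT and 14.2 and 10.3 in KO. Neither PMSG list held it. Its PMSG-only region lay past the end of the gene (chr13:109985783-109986330), with folds of 12.7 and 13.3 in PMSG, 10.8 and 5.65 in WT and 6.48 and 7.52 in KO. That region was missing from both hCG libraries but open in all 4 PR libraries, which the design text also places after hCG but which are of another strain.

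Pde10a, which hydrolyses both cAMP and cGMP, had its best hCG-only region inside the gene at chr17:8562066-8563084. The fold there was 13.7 and 14.9 in hCG, 14.5 and 16.8 in WT and 11.3 and 10.2 in KO, and the covered length was between 826 and 1010 bp. Its best PMSG-only region (chr17:8613935-8614461) had folds of 11.5 and 10.2 in PMSG and 5.06 to 7.66 in the 4 PR libraries. At Pde8a, a cAMP-specific phosphodiesterase of high affinity, the best hCG-only region (chr7:81319597-81320396) lay 107 kb past the start. Its fold was 14.1 and 13.8 in hCG, 13.0 and 16.1 in WT and 11.2 and 8.62 in KO, so that KO replicate 2 was lowest. Pde8a also had a PMSG-only region, chr7:81260452-81260959, that none of the other 6 libraries held; its folds were 8.01 and 7.41.

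Pde4b, the cAMP-specific enzyme related to Pde4d, had its best hCG-only region 14.3 kb before a listed start (chr4:102555479-102555981). There the fold was 11.4 and 11.3 in hCG, 13.2 and 15.9 in WT and 9.17 in KO replicate 1, while KO replicate 2 held no peak there. The 2 open starts of Pde4b had different values. At 102570060 the fold was 10.7 and 10.6 in hCG and 10.5 and 9.64 in PMSG. At 102589843 it was 8.21 and 6.68 in hCG and 13.4 and 11.9 in PMSG, with 9.55 and 9.74 in WT and 6.13 and 7.03 in KO. Both PMSG values exceeded the other 6 at the latter start. A PMSG-only region, chr4:102600104-102601017, lay 10.7 kb past that start, with folds of 8.34 and 7.89 in PMSG, 5.38 in WT replicate 1 and 5.13 in KO replicate 2.

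**Figure D5:**
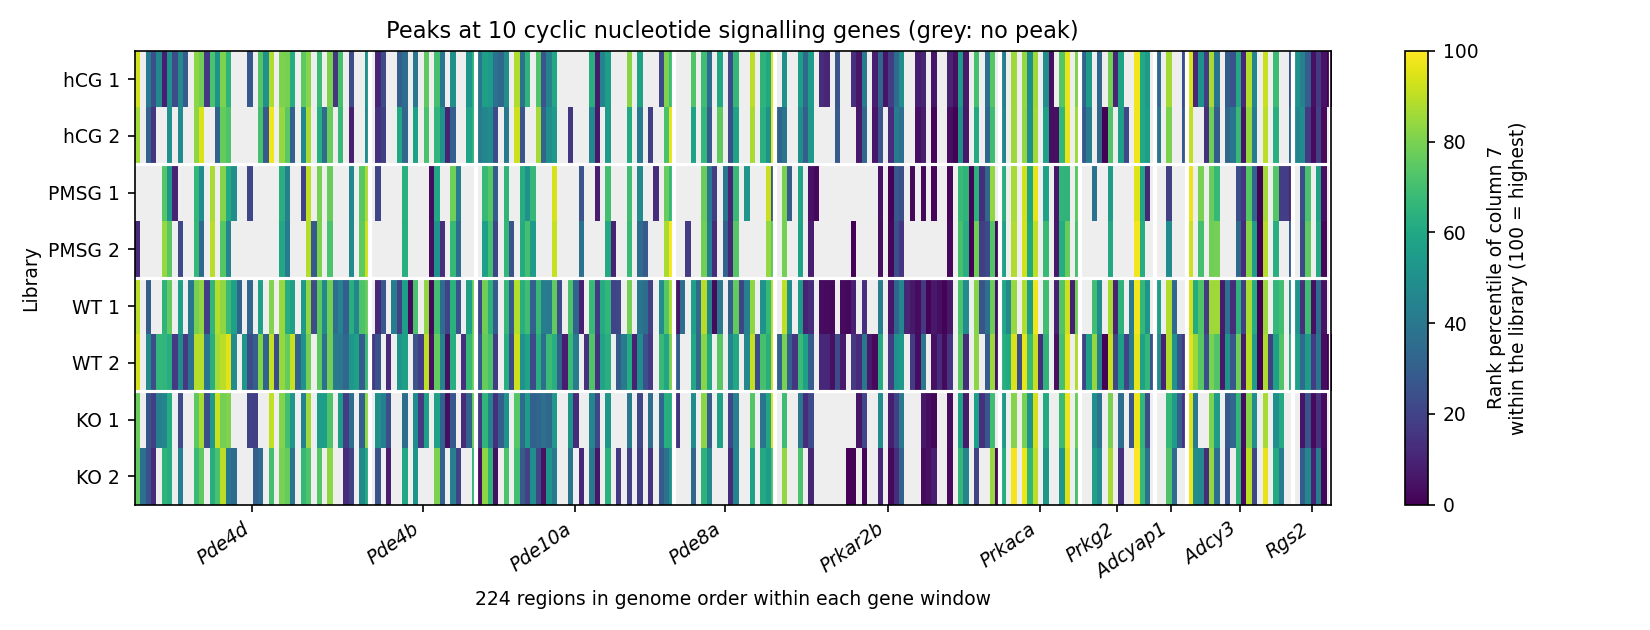
Rank percentile by the authors' fold of each of the 224 regions (columns, in genome order within each gene) in the 8 libraries (rows), with grey for no peak and yellow for the highest ranks. PMSG rows have the most grey, WT rows the least, and Prkar2b has many dark columns, which are low ranks.

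Prkar2b had many peaks of low rank. Its window had 42 regions around a gene of 103 kb, against 44 around the 1302 kb of Pde4d. Within the lists, the median rank percentile by fold of its peaks was 22.6 and 30.4 in hCG, 18.4 and 18.7 in PMSG, 9.99 and 17.5 in WT and 20.5 and 10.4 in KO. Over all regions these medians were between 50.4 and 51.5. By −log10 q the Prkar2b medians were higher, 50.02 and 47.8 in hCG and 29.5 and 36.9 in PMSG. The covered length in its window was 15.3 and 13.6 kb in hCG and 9.26 and 8.51 kb in PMSG. As a share of all covered sequence that is 392 and 355 ppm in hCG and 310 and 285 in PMSG, so the order held after scaling. In WT it was 368 and 365 and in KO 362 and 347 ppm.

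Individual regions of Prkar2b were higher in hCG or in PMSG. The best hCG-only region (chr12:31996900-31998211), 63.0 kb into the gene, covered 1240 and 1243 bp in hCG with folds of 7.34 and 7.02. PR libraries had folds of 4.41 and 6.73 in WT and 5.60 and 2.91 in KO. A region 5.53 kb before the start (chr12:32065963-32067654) was held by all 8 libraries. Its fold was 3.97 and 4.14 in hCG and 11.2 and 11.2 in PMSG. The region joined separate intervals, which a long interval of KO replicate 1 spanned. Both hCG libraries, both WT libraries and KO replicate 2 held a separate interval nearer the start, which neither PMSG library held. Outside KO replicate 1, the folds are those of the interval farther from the start. In this region the WT libraries differed from each other, at 7.44 and 4.34, as did the KO libraries, at 4.07 and 7.29. WT replicate 1 and KO replicate 2 were the PR libraries nearer to PMSG. With equal lists this region was PMSG-only. The best PMSG-only region with all peaks (chr12:32084777-32085177), 23.7 kb before the start, had folds of 5.42 and 6.14 in PMSG, 5.40 in WT replicate 1 and 4.77 in KO replicate 1.

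Prkaca lies among other genes, and 14 of its 15 regions were in the flanks, so the window describes its neighbours as well. Of these regions 9 were held by all 8 libraries. The 1 hCG-only region (chr8:84012469-84012658) had folds of 3.48 and 3.68 and was held by no PR library. Adcy3 had 3 hCG-only regions, of which 2 lay inside the gene (chr12:4170672-4170989 and chr12:4177399-4177920) and 1 inside the neighbour Dnajc27 (chr12:4115923-4116505). Their folds in hCG were 6.23 and 6.98, 5.88 and 7.57, and 5.19 and 5.05. Both WT libraries held all 3, and in KO the first was held by both libraries, the second by replicate 1 and the third by replicate 2. All 3 were called again with 55654 intervals per list. Its PMSG-only region (chr12:4230316-4230490), inside the neighbour Cenpo, had low folds of 2.87 and 2.57 in PMSG and 2.05 and 2.26 in WT. It was also WT-only, and neither call was made with equal lists.

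Prkg2 encodes the membrane-associated cGMP-dependent protein kinase and had 4 hCG-only and no PMSG-only regions, in both list lengths. The best (chr5:98949812-98950267) had folds of 9.15 and 9.44 in hCG, 9.67 and 8.70 in WT and 7.01 and 4.74 in KO. Covered length in its window was 4.50 and 4.53 kb in hCG, 1.97 and 1.64 kb in PMSG, 4.74 and 5.73 kb in WT and 3.96 and 3.19 kb in KO. The region chr5:98996961-98997609, 40.1 kb from the higher-coordinate end, was held by every library. It had a fold between 16.3 and 20.4 and a rank percentile of 95.0 or more in all 8 libraries. The higher-coordinate end (chr5:99036389-99037773) had folds from 8.91 (WT replicate 2) to 11.2 (PMSG replicate 2), and covered 1225 and 1120 bp in hCG against 848 and 822 bp in PMSG.

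Adcyap1 encodes PACAP, a peptide ligand that raises cAMP through its receptors. Its window was the sparsest, with 6 regions. The hCG libraries held 3 each, the PMSG libraries 1 each, WT 3 and 6, and KO 4 and 2. Inside the gene the 1 region (chr17:93202243-93203037) had folds of 5.73 and 6.49 in hCG, 4.66 in WT replicate 2 and 4.98 in KO replicate 1. No peak was called there in PMSG, in WT replicate 1 or in KO replicate 2. It covers a listed start of another gene, Gm32465, so it cannot be assigned to Adcyap1 alone. The region chr17:93162360-93162954 was the 1 region of the window held by all 8 libraries. Its fold was 13.4 and 12.6 in hCG, 6.08 and 9.29 in PMSG, 14.2 and 15.2 in WT and 10.3 and 10.6 in KO. Both PMSG values were the lowest of the 8.

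The PR comparison asks what differs without PGR after hCG. Of 215 member regions held by any PR library, 28 (13.0%) were WT-only and 0 were KO-only, where 12.1% and 0.0802% of all such regions were. WT lists held 80137 and 84313 intervals and KO lists 58851 and 55654, so the counts were also taken with equal lists. With 55654 intervals per list, 10 of 168 regions were WT-only and 11 KO-only (5.95% and 6.55%), against 4.26% and 4.15% over all regions. With all peaks, at least 1 WT library held each of these 11 KO-only regions. Without WT replicate 1 and with all peaks, 55 regions were WT-only (26.8%, against 24.9% over all regions). The KO-only count was then 1 (0.488%, against 0.314% of all), and 3 without WT replicate 2 (1.60%, against 0.558%).

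By gene, Prkar2b had 9 WT-only regions with all peaks and 0 with equal lists, and Pde10a 4 and 1. Pde4d had 3 in both settings and Pde8a 2 in both, and all 10 regions called with equal lists were among the 28. With equal lists ranked by −log10 q, Pde4d had 2 and Pde8a 0. Without WT replicate 1 and with all peaks, Prkar2b had 14, Pde4d 9, Pde10a 8 and Prkg2 6. In that setting Prkaca and Adcy3 had 4 each, Pde4b and Pde8a 3 each and Adcyap1 and Rgs2 2 each. Without KO replicate 1, Pde4b had 5. With all peaks and with equal lists by fold, Adcy3 had 3 and 1, Prkaca 2 and 1, Pde4b 2 and 0 and Prkg2 1 and 0. Adcyap1 and Rgs2 had 1 in each setting. The KO-only regions with equal lists were 4 at Pde10a, 3 at Pde4d, 2 each at Pde4b and Prkar2b and 0 at the other genes. Of the regions called in both settings, that of Prkaca (chr8:83941127-83941413, inside the neighbour Adgrl1) had folds of 7.43 and 9.48. That of Adcy3 (chr12:4253271-4253724, inside the neighbour Ncoa1) had 7.60 and 9.93 in WT, and was also held by all 4 LH libraries, with folds of 5.14 to 7.30. The best WT-only regions of Pde4d (chr13:109944466-109944844) and Pde8a (chr7:81298322-81298490) had 7.24 and 8.73, and 7.03 and 7.44, and that of Pde8a was also held by PMSG replicate 1 with 9.53. The best WT-only region of Pde10a (chr17:8790609-8790793) had 9.17 and 9.06, and 7.72 in hCG replicate 1. Not called with equal lists were the best of Prkar2b (chr12:31926730-31926950, at the neighbours Cog5 and Hbp1) with 7.47 and 5.82, and of Prkg2 (chr5:98949028-98949225) with 3.99 and 5.00. The former was also held by PMSG replicate 1 with 7.02, and the latter by hCG replicate 1 with 4.47.

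At 4 member regions, a peak was present in the 2 hCG and 2 WT libraries and absent from all PMSG and KO libraries (1.79% of 224, against 2.41% of all regions). They lay at Rgs2, Adcyap1, Pde4b and Prkar2b. The Rgs2 region (chr1:143955744-143956811), 47.9 kb past the start, had folds of 8.33 and 8.25 in hCG and 7.91 and 8.85 in WT. Its covered length was 525 and 689 bp in hCG and 670 and 1066 bp in WT. The Adcyap1 region (chr17:93156226-93156621), 42.6 kb before the start, had folds of 6.68 and 7.63 in hCG and 8.44 and 7.76 in WT. These 2 were called the same way with 55654 intervals per list (1.09% of 184 member regions, 1.04% of all). The Pde4b region (chr4:102499006-102499184) had folds of 6.33 and 9.88 in hCG and 4.87 and 8.13 in WT, and that of Prkar2b (chr12:32040644-32041006) had 4.16 and 3.66, and 3.02 and 3.07. Neither was called so with equal lists.

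The PR libraries of 1 genotype held different numbers of the LH calls. Of the 43 hCG-only member regions, WT replicate 1 held 33 (76.7%) and replicate 2 held 40 (93.0%), and KO replicate 1 held 30 (69.8%) and replicate 2 held 23 (53.5%). Over all 14212 hCG-only regions the shares were 79.7%, 91.2%, 62.9% and 44.3% in the same order. Of the 10 PMSG-only member regions, WT held 8 and 4 (80.0% and 40.0%) and KO held 3 and 4 (30.0% and 40.0%). Over all 8338 PMSG-only regions the shares were 76.2%, 45.6%, 20.8% and 34.1%. In KO, replicate 2, the shortest list of the 8, held fewer of the hCG-only regions than replicate 1. The part of list length in this was not tested.

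Few group-only regions covered a gene start, at the members as over all regions. Of the 43 hCG-only member regions, 1 covered a listed start of any gene (2.33%, and 1.41% of all hCG-only regions), namely that of Gm32465 inside Adcyap1. The count was 0 of 10 for PMSG-only (0.816% of all such regions) and 0 of 28 for WT-only (1.39% of all). Among the 70 member regions held by all 8 libraries (31.2% of 224, against 37.9% of all regions) 15 covered a start (21.4%, and 28.6% of all such regions).

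The rest of the pathway was described with 75 other genes in 8 lists. Their windows held 166 hCG-only and 82 PMSG-only regions of 1121, or 17.4% and 8.60% of those held by an LH library, close to the 17.6% and 10.3% of all regions. More hCG-only than PMSG-only regions were found at 42 genes, more PMSG-only at 10 and equal numbers at 23. With equal lists these became 28, 21 and 26 genes, and the counts 133 and 114 (15.2% and 13.1%, against 15.3% and 13.4% over all regions). The other PKA subunits and inhibitors had 19 hCG-only and 1 PMSG-only region (24.1% and 1.27%, beside 24.3% and 5.65% at the members). With equal lists they had 15 and 3 (21.1% and 4.23%, beside 25.0% and 7.24% at the members). Among them were 6 and 1 at Prkar1a, 4 and 0 at Prkar2a, 3 and 0 at Prkacb and 3 and 0 at Pkig (1 and 1 with equal lists). A-kinase anchoring proteins, which tether PKA, had 45 and 18 (23.1% and 9.23%), and 34 and 27 with equal lists (18.9% and 15%). They were led by Akap2 with 19 and 5 (10 and 6 with equal lists) and Akap13 with 11 and 3. Akap6 had 1 and 3 and Akap8 0 and 3.

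Other phosphodiesterases had 29 hCG-only and 21 PMSG-only regions (14.6% and 10.6%), and 25 and 22 with equal lists (13.3% and 11.7%), near the shares over all regions. Pde1a had 6 and 1 and Pde1b 4 and 0, both calcium-calmodulin dependent enzymes, while Pde11a had 1 and 7 and Pde8b 3 and 6. Pde8b is the close relative of Pde8a, which had 4 and 2. Prkg1, the other cGMP-dependent kinase gene, had 0 and 4, where Prkg2 had 4 and 0. Other adenylyl cyclases had 21 and 10 (20% and 9.52%), and 17 and 15 with equal lists (18.1% and 16%). Among them were 5 and 2 at Adcy7, 4 and 0 at Adcy6, 4 and 2 at Adcy10 and 4 and 5 at Adcy9. The guanylyl cyclase and natriuretic peptide list had 10 and 10 (13.2% and 13.2%), and 7 and 15 with equal lists (10.3% and 22.1%). In it Npr1 had 4 and 1, and 2 and 3 with equal lists. EPAC and CREB factors had 19 and 9 (14% and 6.62%). G proteins and PACAP receptors had 16 and 7 (15.4% and 6.73%), and other RGS genes 7 and 6 (11.9% and 10.2%). With equal lists these last 3 lists had 18 and 15 (14.6% and 12.2%), 12 and 10 (12.5% and 10.4%), and 5 and 7 (9.43% and 13.2%).

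For scale, the windows of the granulosa cell markers had 19.1% hCG-only and 14.8% PMSG-only regions, and those of the endothelial markers 25.0% and 6.25%. With equal lists the shares were 11.8% and 23.5% for granulosa cell markers and 25.0% and 6.82% for endothelial markers. Theca and stroma marker windows had 16.3% and 4.08%, immune 20.7% and 6.90% and oocyte 14.3% and 3.57%. With equal lists these became 6.98% and 11.6% (theca and stroma), 14.8% and 7.41% (immune) and 14.3% and 14.3% (oocyte). Their part in the member counts was not tested.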

How the data were processed

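ATAC-seq peak lists of 8 libraries were used, 1 per library. The submitters' processing notes name Bowtie2, MACS2 and build mm10 without versions; cutoffs and any Tn5 shift are not given in the sources used here. Peak names of the PR lists mention filtering and marked duplicates, and those of the LH lists do not. Column 7 of the deposited lists was read as a linear fold enrichment (a ratio over the caller's background), and column 9 of the deposited lists as −log10 of a q-value, with no value under 10. Column 10 of the deposited lists gives the summit's offset. These are the authors' values, and the lists were not scaled to each other, so orders between groups were read by rank within a list.

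Summits sharing an interval were counted once, with their best values. Intervals on chromosomes 1 to 19 and X were merged over all 8 libraries where they shared 1 bp. A percentile ranks an interval within its list. Equal lists took the best 55654 intervals by fold, the length of the shortest list. Shares were computed over regions held by any library of the experiment. Gene positions and starts came from RefSeq GRCm38.p6 tables, which matched all 10 genes for position and 9 for a start. Single regions were not tested, since 2 against 2 libraries cannot go below an exact permutation p of 0.33. The calling code was checked on simulated lists in which group-only regions were present or absent without any missed peak. That check covers the code alone and not calls made from lists of unequal length. Python 3.11.15, pandas 2.3.3 and SciPy 1.17.1 were used.

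All members were named. Regions were named if they covered a member's start, ranked best per gene and direction, or belonged to a gene with 3 or fewer group-only regions and stayed called in equal lists. Chosen after their values were seen were the 15.2 kb and gene-end regions of Rgs2, the region 5.53 kb before Prkar2b, that 40.1 kb inside Prkg2, the shared region of Adcyap1 and the Prkar2b region held by hCG and WT alone. Pathway genes could be named only with 3 or more group-only regions of 1 kind, and not all of these are named. The members and lists were chosen with earlier results of these data known.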

Additional observations from a re-analysis of the deposited data

How the results depend on the processing

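The hCG-only count over the 10 genes, 43 with all peaks, was 12 with the 20000 best intervals per list (19%, against 17.1% of all regions). It ran from 46 to 56 when leaving out each library in turn (26.9% to 32.9%, against 19.8% to 22.2%). The other alternatives gave 31 (gene bodies, 26.5% against 17.6%) to 53 (50% cover, 31.9% against 24.6%). The PMSG-only count, 10, was 6 within gene bodies only (5.13% against 10.3%) and ran from 11 to 19 when leaving out a library (6.47% to 11.1%, against 11.6% to 13.8%). The WT-only count, 28, was 10 with equal lists (5.95% against 4.26%), 3 with the 20000 best (5.36% against 2.23%) and 8 (4.85% against 2.78%) with equal lists ranked by −log10 q, an alternative added after seeing the data. It ran from 35 to 55 without a library (16.4% to 26.8%, against 16.0% to 24.9%). The KO-only count, 0, was 11 (6.55% against 4.15%), 1 (1.79% against 1.98%) and 8 (4.85% against 2.49%) under the same 3 settings. It was 1 where intervals had to cover 50% of a region (0.467% against 0.382%), and from 1 to 3 without a library (0.467% to 1.60%, against 0.314% to 0.614%). Every gene had more hCG-only than PMSG-only regions in the −log10 q of 20 or more, 50% cover and separate merging settings. With 10 kb flanks Prkaca was equal, and within gene bodies Prkaca and Pde8a were. Prkaca was equal without hCG replicate 2, and Adcy3 without PMSG replicate 2. The causes were not tested beyond the shorter lists or windows. No paired analysis was possible because the labels state no link between replicates of the same number, and the group-only counts come from no test. Read depth is unknown, so a missing peak can reflect low sensitivity.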
